A study of Sus scrofa with 20 samples.

Results

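Counts of 40 genes for CD antigens, of 21755 reference IDs in all, were compared between testis and liver of boars and between boars with high and low androstenone, as a sign of immune cell content. The CD antigens are cell surface proteins that were numbered as antibodies against leukocytes were sorted into clusters of differentiation, and many of them mark single kinds of immune cell. CD3 with CD247 forms the signalling part of the T cell receptor, CD4 and CD8 are its coreceptors, CD79A belongs to the B cell receptor, and CD14 binds bacterial lipopolysaccharide on monocytes and macrophages. Liver holds a large resident population of macrophages (Kupffer cells) and lymphocytes, whereas in testis macrophages lie among the Leydig cells and the seminiferous tubules are closed to most leukocytes.

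The genes were chosen by name. A reference ID was taken where its RefSeq accession belonged to a pig gene whose symbol is CD, a number and at most 1 further letter, leaving out CD74, the invariant chain of MHC class II. CD244 was added through the gene table of the study. Each of the 40 genes had 1 ID. The RefSeq table holds 70 such symbols, and the other 30 had no matching ID here, among them CD5, CD8B, CD22, CD63, CD68, CD79B, CD81 and CD163. The absence of CD68 and CD163 leaves the macrophage markers thin, and that of CD22 and CD79B the B cell markers.

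RNA-Seq counts were available for 20 libraries, 10 of testis and 10 of liver. The animals were Duroc × F2 boars, where F2 came from Leicoma, German Landrace and Large White pigs, and the labels give an age of 116 days for all of them. In the paper 116 days is the mean at slaughter, so the age of each boar is not known. Each tissue had 5 libraries of boars with low and 5 of boars with high androstenone, a steroid of the testis that is stored in fat and broken down in liver, and the groups were defined on its level in neck fat. In the paper, both tissues were taken from 10 boars, 5 per group. Which libraries share a boar is not given, so the main fits treat all 20 as independent. No animal received a treatment. Levels are given below as counts per 1000000 after TMM normalization (CPM), over all 20 libraries, and an SD is over libraries, 1 per boar and tissue. Reference lengths were not used, so levels are compared between libraries for 1 gene, not between genes.

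The testis libraries held 6161397 to 15975386 counts each and the liver libraries 5796973 to 26783002, at which depth 3 counts are worth 0.188 to 0.487 CPM in testis and 0.112 to 0.518 CPM in liver. The tissue labels were checked against marker genes. All 7 hepatocyte markers with an ID were lower in testis, with a summed level of 37.1 to 124 CPM in testis and 93984 to 268213 CPM in liver. The 2 germ cell markers were higher in testis, as were 3 of 4 Leydig cell markers but not HSD3B1 (log2 fold change -0.70 ± 0.37 SE, testis over liver), and 1 of 3 Sertoli cell markers, SOX9. TMM factors were 1.27 to 1.45 in testis and 0.515 to 0.876 in liver, so liver CPM are raised, and testis CPM lowered, against counts scaled by library totals alone.

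Between 25 and 35 of the 40 genes had more than 3 counts in a testis library, and between 28 and 35 in a liver library. Together they took 0.0575% to 0.0743% of all counts in testis and 0.0595% to 0.0773% in liver, so that the ranges overlapped. What made up this share differed. In liver CD14 alone gave 45.5% of the counts of these genes, whereas in testis CD164, a sialomucin of many cell types, gave 20%, CD47, the "do not eat me" ligand of macrophage SIRPA, 16.6%, CD58 16.5%, the tetraspanin CD9 14.6% and CD247 11.7%. These shares are of counts pooled over the libraries of a tissue, not corrected for length. Within single libraries CD14 held the most counts in all 10 of liver, and CD58 and CD164 did so in 5 testis libraries each. CD70, a ligand of the TNF family on activated lymphocytes, had no count in any library, which allows a level of up to 0.0204 CPM over the testis libraries and 0.0363 CPM over the liver libraries.

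Testis was first compared with liver. Of the 40 genes, 37 reached 10 counts over the 20 libraries and were tested, and CD1E, CD70 and CD101 were not. A gene was called where its adjusted p was under 0.05 and its level differed 1.5-fold or more (edgeR's quasi-likelihood test, Benjamini-Hochberg over 19065 IDs). This was met by 26 of 37 genes, that is 70.3%, against 75.7% of all IDs tested. The directions were unequal. Of the tested genes 7 were higher in testis (18.9% of those tested, against 43.5% of all IDs), and 19 were higher in liver (51.4%, against 32.2%). The median log2 fold change, testis over liver, was -0.71 for the CD antigens and 0.31 for all IDs. In the plain scaling by library totals, added after the data were seen, the split was 16 higher in testis and 14 higher in liver, and 76.0% in place of 57.4% of all called IDs were higher in testis. Of the 19 genes higher in liver, 14 were called so under both scalings, and CD1D, CD2, CD4, CD40 and CD72 were not. In whole tissue, fewer cells of a type and less RNA per cell cannot be told apart.

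**Figure D1:**
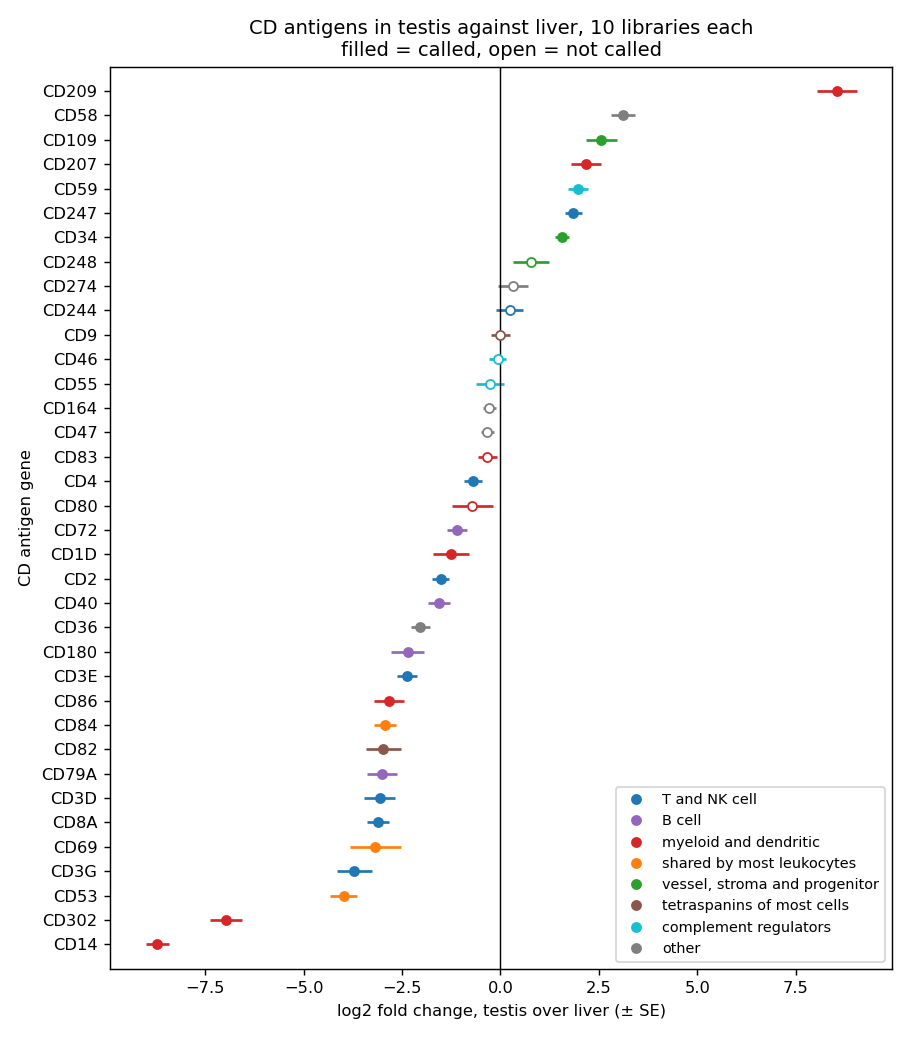
Log2 fold change of the tested CD antigen genes, all but 1, testis over liver, with its standard error (x axis), for 10 libraries per tissue after TMM normalization; colours give the class of the gene, and filled points were called. Most T cell, B cell and shared leukocyte genes lie left of 0, CD14 (-8.71) and CD302 (-6.96) lie farthest left, and CD209 (8.54) lies farthest right.

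The T cell receptor genes did not move together. CD3E (NM_214227.1), CD3D (NM_213775.2) and CD3G (NM_001008686.1), the short signalling chains of the receptor complex, are neighbours in the RefSeq annotation of Sscrofa11.1, with no gene between them. CD3E ranged from 0.479 to 3.61 CPM in testis (median 1.61) and from 3.85 to 18.2 CPM in liver (median 8.31). After TMM no testis library reached the lowest liver library. The TMM factors of the 2 libraries at this gap were 1.27 in testis and 0.876 in liver, so under library totals their order would reverse. The log2 fold change was -2.37 ± 0.25 SE (edgeR, adjusted p = 3.9e-09). CD3G was at a median of 0.0912 CPM in testis and 2.19 CPM in liver, with a log2 fold change of -3.71 ± 0.44, and CD3D at 0.101 and 1.24 CPM, with -3.07 ± 0.39. Both were near the limit of detection in testis, where CD3G summed to 37 counts over 10 libraries and CD3D to 24.

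CD247 (NM_214155.2), the zeta chain that carries most of the signalling motifs of the complex, was higher in testis. It ranged from 26.9 to 85.9 CPM in testis (median 54.5) and from 8.32 to 28.2 CPM in liver (median 13.9), so only the lowest testis library lay below the highest liver library. The log2 fold change was 1.85 ± 0.22 SE (adjusted p = 2.7e-08), opposite in sign to that of each CD3 chain. Counts of CD247 per count of CD3E were 12.3 to 108 in testis (median 29.2) and 0.602 to 5.48 in liver (median 1.76), and the tissues did not overlap in this ratio, which does not depend on the normalization.

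**Figure D2:**
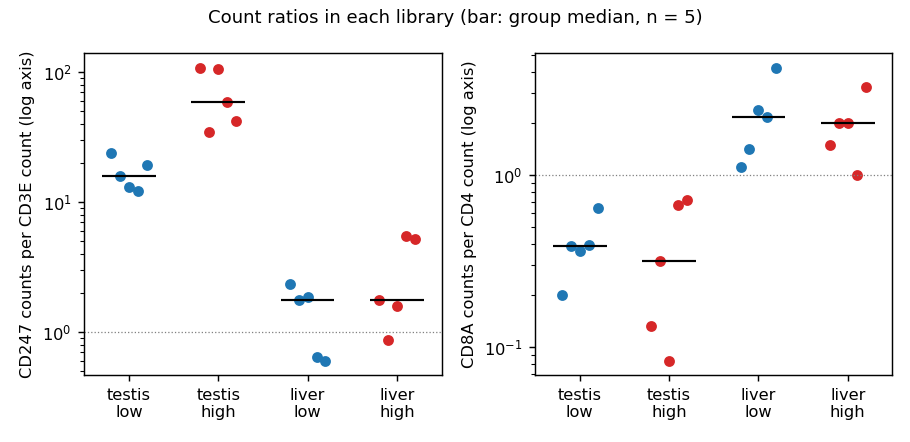
Ratio of the counts of 2 genes within each library, on log axes, for low (blue) and high (red) androstenone, with the group median as a bar. Testis libraries hold 12.3 to 108 counts of CD247 per count of CD3E and liver libraries 0.602 to 5.48, and testis libraries hold 0.0833 to 0.714 counts of CD8A per count of CD4 and liver libraries 1.00 to 4.20. CD8A summed to only 56 counts over the testis libraries.

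The coreceptors differed in size of change. CD8A (NM_001001907.1), a chain of the coreceptor CD8, was at 0.0957 to 0.696 CPM in testis (median 0.437) and 2.01 to 7.14 CPM in liver (median 2.94). All liver libraries were above all testis libraries, and the log2 fold change was -3.12 ± 0.28 SE (adjusted p = 2.5e-10). CD4 (NM_001001908.1), of helper T cells and in pigs also of other leukocytes, was at 0.672 to 1.94 CPM in testis (median 1.09) and 0.733 to 2.66 CPM in liver (median 1.62). The ranges overlapped, and CD4 was called with a log2 fold change of -0.70 ± 0.23 (adjusted p = 0.00896), which became 0.31 under library totals and was then not called. CD8A had 0.0833 to 0.714 counts per count of CD4 in testis and 1.00 to 4.20 in liver, again without overlap. The testis ratios rest on few counts, 56 of CD8A and 157 of CD4 over all testis libraries, and their counting error was not computed.

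CD2 and CD58 are receptor and ligand: CD2 (NM_213776.1) sits on T and NK cells and binds CD58 (NM_213795.1) on the cell opposite. In the RefSeq annotation of Sscrofa11.1 they are separated by 2 genes. CD2 was at 1.24 to 3.68 CPM in testis and 3.12 to 9.06 CPM in liver, with a log2 fold change of -1.52 ± 0.22 SE (adjusted p = 6.9e-07). Under library totals it was -0.54 and below the fold required. CD58 went the other way, with 26.7 to 121 CPM in testis (median 92.0) and 4.25 to 23.9 CPM in liver (median 8.30). No liver library reached the lowest testis library, and the log2 fold change was 3.11 ± 0.31 SE (adjusted p = 1.3e-09).

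CD244 and CD84 belong to the SLAM family of receptors on NK, T and myeloid cells and are separated by 6 genes in the same annotation. CD84 (XM_001928464.1) was at no count to 1.01 CPM in testis and at 2.08 to 6.94 CPM in liver, with no overlap and a log2 fold change of -2.94 ± 0.28 SE (adjusted p = 6.5e-10). CD244 (XM_001928325.2) had a log2 fold change of 0.23 ± 0.35 between the tissues and was not called, with 1.07 to 20.2 CPM in testis and 2.02 to 6.35 CPM in liver. SH2D1A, the adaptor that SLAM receptors bind, had 6 counts in all testis libraries together and 65 in liver (log2 fold change -3.79 ± 0.60), and FYN, a kinase of that pathway and of many other cells, was higher in testis (0.87 ± 0.18).

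Of the 6 B cell genes, 5 were tested and 4 were higher in liver. CD79A (NM_001135962.1), which carries the signal of the B cell receptor, was at 0.0532 to 0.576 CPM in testis and 0.733 to 5.33 CPM in liver. The tissues did not overlap after TMM, though they would under library totals, and the log2 fold change was -3.01 ± 0.38 SE (adjusted p = 8.6e-08). CD180, a relative of the Toll-like receptors on B cells, was lower in testis with -2.36 ± 0.41, CD40, the receptor for T cell help, with -1.56 ± 0.28, and CD72, an inhibitory coreceptor, with -1.11 ± 0.26. CD40 and CD72 were not called under library totals.

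The myeloid and dendritic genes held the largest differences in both directions. CD14 (NM_001097445.2) was at 0.291 to 2.03 CPM in testis (median 1.00) and 312 to 541 CPM in liver (median 441), 418-fold higher in liver by the fitted log2 fold change of -8.71 ± 0.30 SE (adjusted p = 3.0e-18). Hepatocytes are also known to make CD14, and the part of each cell type in its level was not tested. CD302 (NM_001110425.1), a C-type lectin of myeloid cells that is also abundant in hepatocytes, was at 0.0971 to 0.657 CPM in testis and 17.8 to 94.8 CPM in liver, with -6.96 ± 0.41 (adjusted p = 4.6e-14). For both genes the lowest liver library was above the highest testis library by a wide margin. CD86 (NM_214222.1), which costimulates T cells from antigen presenting cells, was at 0.160 to 0.957 CPM in testis and 1.70 to 10.8 CPM in liver, with -2.82 ± 0.38. Its partner CD80 was not called, with -0.71 ± 0.51, and neither was CD83, a marker of mature dendritic cells, with -0.33 ± 0.23. CD1D, which presents lipids to NKT cells, was called with -1.26 ± 0.45, but not under library totals.

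A pair of lectin receptors was higher in testis. CD209 (NM_001129972.1), known as DC-SIGN on dendritic cells and macrophages, had 1139 counts over the testis libraries and 1 over the liver libraries. The ratio of these pooled counts, each over the pooled normalized library sizes of its tissue, was 638, with a 95% interval of 114 to 25236 for counting error only, and the gene passed the count filter only through testis. Its levels in testis were 6.90, 1.81, 6.82, 7.77 and 8.04 CPM with low androstenone and 7.88, 9.58, 7.27, 10.2 and 9.31 CPM with high androstenone. Low replicate 2 was thus far below the other 9 testis libraries, but still above every liver library. CD207 (NM_001129957.1), the langerin of Langerhans cells, was at 1.17 to 6.52 CPM in testis (median 4.57) and 0.193 to 2.15 CPM in liver (median 0.582), with a log2 fold change of 2.18 ± 0.38 SE (adjusted p = 1.2e-05) and an overlap through the lowest testis library. CD1E had no count in testis and 6 counts in liver, and CD101 had 3 and 5.

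**Figure D3:**
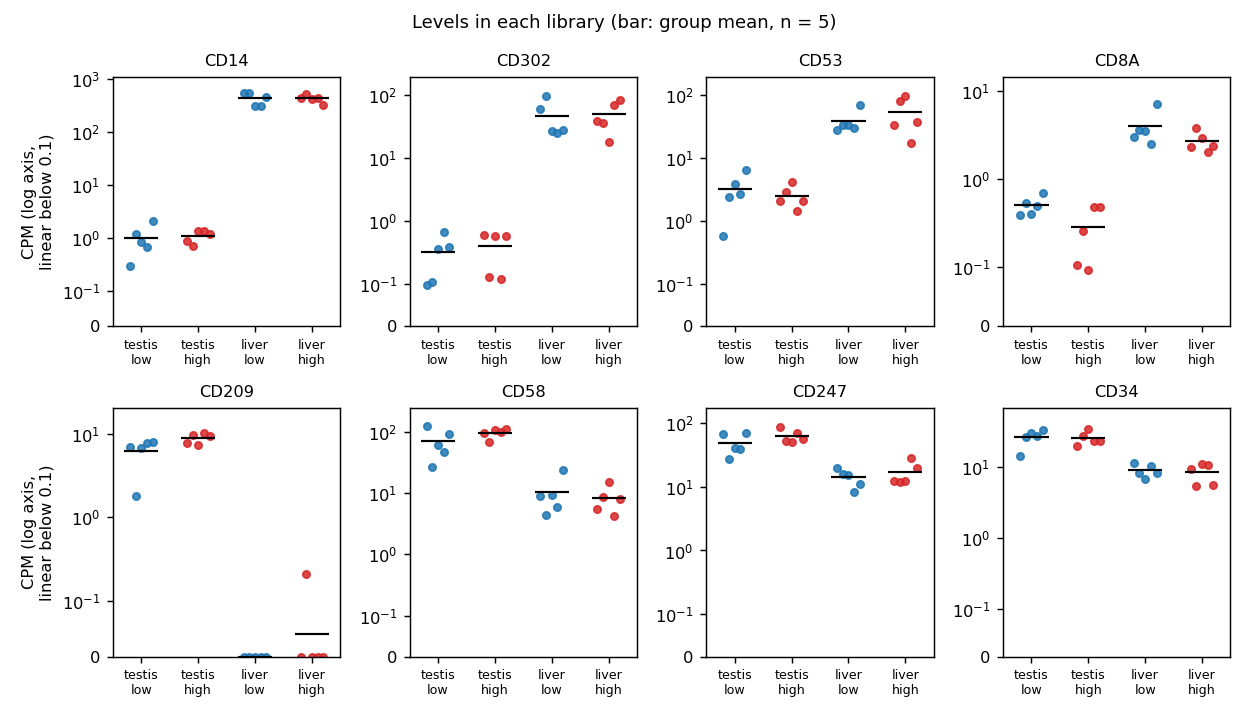
CPM of 8 CD antigen genes in each library by group, on a log axis that is linear below 0.1 CPM; blue is low and red is high androstenone, and bars are group means (n = 5). CD14, CD302, CD53 and CD8A are higher in liver and CD209, CD58, CD247 and CD34 in testis; in all but CD247 the tissues do not overlap.

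The 3 genes shared by most leukocytes were called as higher in liver, 1 of them, CD69, after passing the count filter only through liver. CD53 (XM_001929190.1), a tetraspanin that is nearly confined to leukocytes, was at 0.583 to 6.33 CPM in testis and 17 to 94.5 CPM in liver, a log2 fold change of -3.98 ± 0.35 SE (adjusted p = 1.3e-10) without overlap. CD69, an early sign of lymphocyte activation, summed to only 5 counts in testis and 36 in liver, with -3.18 ± 0.65. The third of the class was CD84, described with CD244. Among the tetraspanins of most cell types, CD82 was higher in liver (-2.97 ± 0.45), where it ranged from 1.65 to 39.4 CPM and overlapped with testis. CD9, which takes part in sperm and egg fusion and in migration of many cells, was at 23.4 to 108 CPM in testis and 32.9 to 137 CPM in liver. Its log2 fold change had an SE of 0.24 and a sign that varied between settings, and under library totals it was 1.01.

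Of the 3 genes of vessels, stroma and progenitor cells, 2 were higher in testis and none was called as lower. CD34 (NM_214086.1), on endothelium and blood progenitors, was at 14.5 to 33.9 CPM in testis and 5.42 to 11.4 CPM in liver. It did not overlap and had a log2 fold change of 1.56 ± 0.18 SE (adjusted p = 3.0e-08). CD109 (XM_001927545.1), a surface protein that binds TGF-beta, was at 1.26 to 2.78 CPM in testis and at no count to 1.06 CPM in liver, with 2.56 ± 0.39 (adjusted p = 1.8e-06). CD248, of pericytes and fibroblasts, was not called (0.78 ± 0.45). The 2 endothelial markers with an ID, PECAM1 (-1.43 ± 0.21) and KDR (-3.03 ± 0.21), were both lower in testis, opposite in direction to CD34, though under library totals PECAM1 was at -0.45 and not called.

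Of the complement regulators, which shield cells from lysis by their own complement, CD59 (NM_214170.1) was higher in testis, with 4.48 to 12.3 CPM against 0.378 to 3.97 CPM in liver, no overlap and a log2 fold change of 1.96 ± 0.25 SE (adjusted p = 9.4e-08). CD46 (-0.07 ± 0.21) and CD55 (-0.26 ± 0.35) were not called. CD36, the fatty acid translocase of macrophages, endothelium and fat, was lower in testis, with 0.971 to 3.19 CPM against 3.13 to 14.6 CPM in liver and -2.04 ± 0.24 (adjusted p = 2.6e-08). CD47 (-0.33 ± 0.16), CD164 (-0.28 ± 0.17) and CD274, the checkpoint ligand PD-L1 (0.32 ± 0.38), were not called. Of all 37 tested genes, 13 had ranges that did not overlap between testis and liver, against 42.8% of all IDs. The 5 higher in testis, against 27.5% of IDs, were CD34, CD58, CD59, CD109 and CD209, and the 8 higher in liver, against 15.3%, were CD3E, CD8A, CD14, CD53, CD79A, CD84, CD86 and CD302. All these ranges are after TMM, and they were not counted under library totals, where CD3E and CD79A would overlap.

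Other leukocyte genes, listed apart from the CD antigens, were tested in the same fit. Of 76 such genes 37 had an ID and 36 were tested; 28 were lower and 4 higher in testis, or 23 and 7 under library totals, and the median log2 fold change after TMM was -2.48. Of all IDs 32.2% were lower, 43.5% were higher and the median was 0.31, and under library totals 3577 IDs were lower and 11348 higher. PTPRC, the common antigen CD45 of leukocytes, was at 1.78 to 6.19 CPM in testis and 27.9 to 83.5 CPM in liver, with -3.56 ± 0.20. CSF1R, the growth factor receptor of macrophages, had -3.40 ± 0.24, and KLRB1, of NK cells, -6.03 ± 0.46. The 4 higher genes were FYN, MPO of neutrophil granules (2.81 ± 0.50, with 55 counts in testis and 4 in liver), PAX5, the B lineage factor (3.58 ± 0.85, 48 and 3 counts), and FCGR1A. MPO and PAX5 passed the count filter only through testis, as KLRB1, SH2D1A, NCR1 and S100A12, all called as lower in testis, did only through liver. FCGR1A, the high affinity receptor for IgG that is also known as CD64, was at 35.5 to 92.4 CPM in testis and at no count to 3.66 CPM in liver, a log2 fold change of 6.25 ± 0.35. The 10 IDs of 4 hemoglobin genes, markers of blood, were all lower in testis, with a summed level of 51.7 to 1059 CPM in testis and 1220 to 14614 CPM in liver. The part of blood left in the tissues in these differences was not tested.

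High and low androstenone boars were then compared within testis, 5 libraries against 5. No CD antigen of 36 tested was called by edgeR, and neither was any of the 18340 IDs tested (0.00%), the smallest adjusted p being 0.236. Leaving out CD244, which the study selected on these same libraries, 4 of 35 genes had an unadjusted p under 0.05, against 9.49% of all IDs. The 3 that were lower with high androstenone, against 6.31% of IDs, were CD3E, CD3G and CD4, and the 1 that was higher, against 3.18%, was CD83. Of these, CD3G passed the count filter only through the low libraries, with 33 counts against 4. DESeq2 called 93 of the 18340 IDs and 1 of the 36 CD antigens, CD3E. The likelihood ratio test of edgeR, which used the trended dispersion alone, called 228 of the 18340 IDs and 3 of the 36 CD antigens, CD3E, CD3G and CD244. The call of CD244 carries no weight, since the study selected it on these same libraries.

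CD3E was at 2.82, 1.71, 3.06, 3.17 and 3.61 CPM in testis of low and at 0.798, 1.52, 0.479, 1.19 and 1.34 CPM in testis of high androstenone boars. Every low library was above every high library, which held for 1.11% of all IDs. In either direction, the groups did not overlap for 1 CD antigen in testis, CD3E, and for 1.86% of all IDs. The log2 fold change, high over low, was -1.45 ± 0.31 SE, with an adjusted p of 0.320 by edgeR and 0.0042 by DESeq2, and between -1.64 and -1.27 when single libraries were left out. CD3E was thus called or not called depending on the test.

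CD3G was at 0.534, 0.177, 0.547 and 0.886 CPM in 4 low libraries and at no count in low replicate 1, and at 0.0532, 0.0867 and 0.0957 CPM in 3 high libraries and no count in the other 2. The groups overlapped only through low replicate 1, and the whole difference, -2.82 ± 0.82 SE on the log2 scale (edgeR, adjusted p = 0.345), rests on 33 counts against 4. CD3D had 18 counts in the low and 6 in the high libraries, with -1.39 ± 0.65. Like CD3G, it passed the count filter only through the low libraries. CD4 was at 1.94, 1.39, 1.11, 1.26 and 1.08 CPM in low and at 0.798, 0.824, 1.15, 0.713 and 0.672 CPM in high androstenone testis. High replicate 3 lay among the low libraries, and the log2 fold change was -0.70 ± 0.29 (adjusted p = 0.472). CD8A had -0.93 ± 0.47 and CD2 -0.36 ± 0.30, whereas CD247 had 0.36 ± 0.25. In all, 6 of the 8 T and NK cell genes had a log2 fold change below 0, as had 52.0% of all IDs.

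CD83 was at 2.53, 2.35, 4.30, 3.39 and 3.74 CPM in low and at 5.27, 7.02, 9.0, 4.16 and 3.84 CPM in high androstenone testis. The highest low library lay above the lowest pair of high libraries, and the log2 fold change was 0.81 ± 0.26 SE (edgeR, adjusted p = 0.399). Of the 8 tested myeloid and dendritic genes, 6 were above and 2 below 0, where 52.0% of all IDs were below 0. They lay within -0.17 and 0.93, with a median of 0.14. CD14 (0.02 ± 0.42) overlapped between the groups, with 0.291, 1.17, 0.842, 0.657 and 2.03 CPM in low and 0.852, 0.694, 1.34, 1.31 and 1.15 CPM in high libraries.

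**Figure D4:**
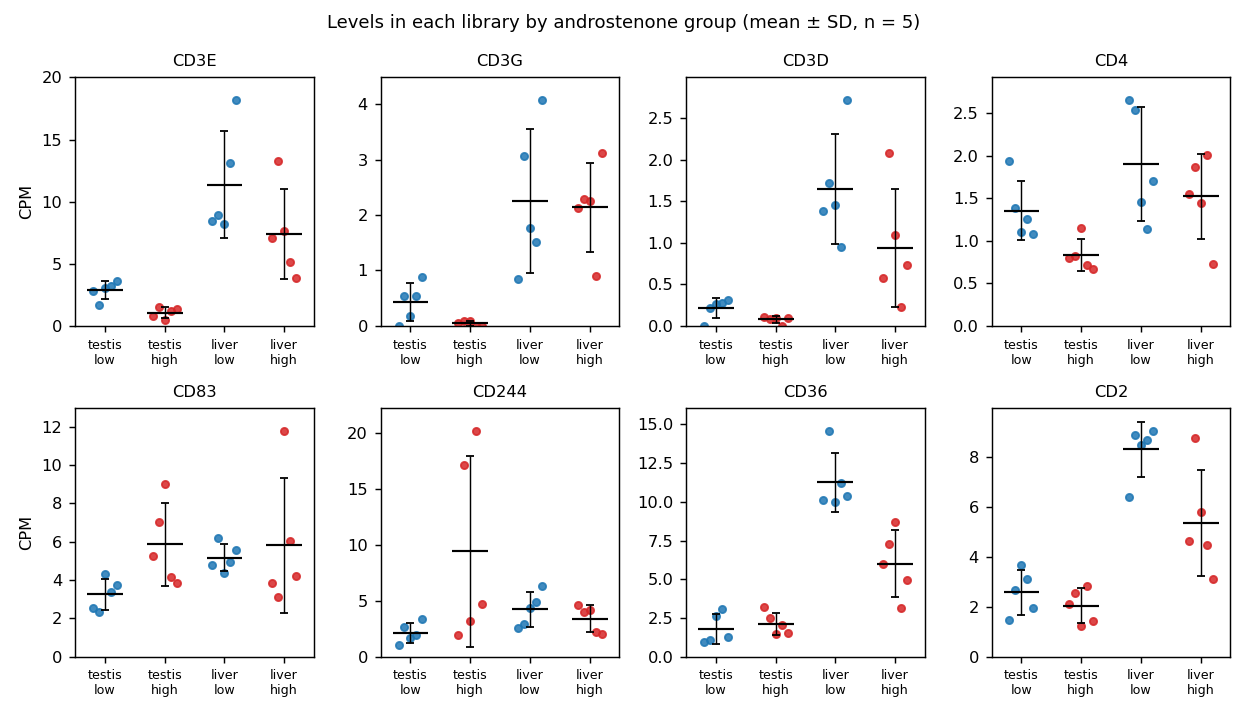
CPM of 8 CD antigen genes in each library by tissue and androstenone group (blue low, red high), with group mean and SD (n = 5) on linear axes that start at 0. CD3E separates low from high libraries in testis and CD36 does so in liver, and the mean of CD244 in high androstenone testis stems from 2 libraries at 17.1 and 20.2 CPM.

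CD244 was at 1.07, 2.67, 1.64, 1.92 and 3.36 CPM in low and at 1.92, 17.1, 3.16, 20.2 and 4.70 CPM in high androstenone testis. High replicates 2 and 4 stood far above the rest, and the other 3 lay at 1.92 to 4.70 CPM, overlapping with the low group. The fitted log2 difference was 2.12 with all libraries and 0.58 without these 2, which is given as a description since the gene was chosen on these libraries. In the same 2 libraries CD2 was at 2.56 and 2.85 CPM and CD8A at 0.260 and 0.476 CPM, within the range of the other testis libraries. In liver CD244 showed 2.56, 2.91, 4.39, 4.92 and 6.35 CPM with low and 4.64, 3.96, 4.14, 2.24 and 2.02 CPM with high androstenone, so no liver library came near 17.1 CPM and the groups overlapped. CD5, a T cell antigen whose ID only the gene table of the study names and which therefore is not among the 40, was also selected by the study. It was at 0.194, 1.07, 0.620, 1.04 and 0.823 CPM in low testis libraries, at 0.106, 0.260, 0.238 and 0.0960 CPM in 4 high ones and at no count in the fifth.

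Values of other leukocyte genes and of hemoglobin genes in testis are given beside those of the T cell genes. Of the 32 other leukocyte genes tested there, 24 had a log2 fold change below 0, against 52.0% of all IDs, and none was called. Of the 32 genes 7 reached an unadjusted p under 0.05, against 9.49% of all IDs, and all 7 were lower with high androstenone, a direction that 6.31% of IDs showed. Among the 7, SLAMF6 (36 counts in low and 8 in high libraries) and KLRK1 (17 and 5) passed the count filter only through the low group. PTPRC was at 2.91, 5.98, 4.65, 6.19 and 4.75 CPM in low and 3.57, 2.99, 2.97, 1.78 and 2.59 CPM in high androstenone testis, with -0.82 ± 0.25 SE (edgeR, adjusted p = 0.354). Only low replicate 1 lay within the high group. The 10 hemoglobin IDs had a median log2 fold change of -1.94. Their summed level was 119 to 1059 CPM in low and 51.7 to 162 CPM in high androstenone testis. The study had selected all 10 on these same libraries, so the values are given as a description and their p-values carry no weight. Most of the 10 are IDs of HBA2 with similar counts, so they are not separate observations. The part of blood content in the lower CD3E, CD3G and CD4 values was not tested.

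In liver, again 5 libraries against 5, no CD antigen of 35 tested was called by edgeR, by DESeq2 or by the likelihood ratio test. Nor did edgeR call any of the 15855 IDs (0.00%), with a smallest adjusted p of 0.9999, whereas DESeq2 called 7 and the likelihood ratio test 46. At an unadjusted p under 0.05 there was 1 CD antigen, CD36, against 2.93% of all IDs. CD36 was at 10.1, 14.6, 9.96, 11.2 and 10.4 CPM in low and at 6.0, 7.29, 8.71, 3.13 and 4.95 CPM in high androstenone liver. The groups did not overlap, as in 0.542% of all IDs, and the log2 fold change was -0.83 ± 0.29 SE (edgeR, adjusted p = 0.9999). In testis the same gene showed 0.19 ± 0.35.

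CD2 was at 6.39, 8.89, 8.49, 8.70 and 9.06 CPM in low and at 4.64, 8.75, 5.80, 4.47 and 3.12 CPM in high androstenone liver, with -0.58 ± 0.30 SE. High replicate 2 was as high as the low group. CD109 summed to 23 counts in low and 6 in high libraries (-1.45 ± 0.86) and passed the count filter only through the low group. CD84 had -0.54 ± 0.32. CD3E was at 8.41, 8.96, 8.20, 13.1 and 18.2 CPM in low and 7.06, 13.3, 7.62, 5.15 and 3.85 CPM in high androstenone liver, with -0.57 ± 0.36 and overlapping groups, and CD3D had -0.77 ± 0.49. Of the 8 T and NK cell genes 7 were below 0 in liver, against 48.3% of all IDs, and none of the 7 had an unadjusted p under 0.05. The hemoglobin IDs, by contrast, all had log2 fold changes above 0 in liver, from 0.21 to 0.32, none with an unadjusted p under 0.05.

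**Figure D5:**
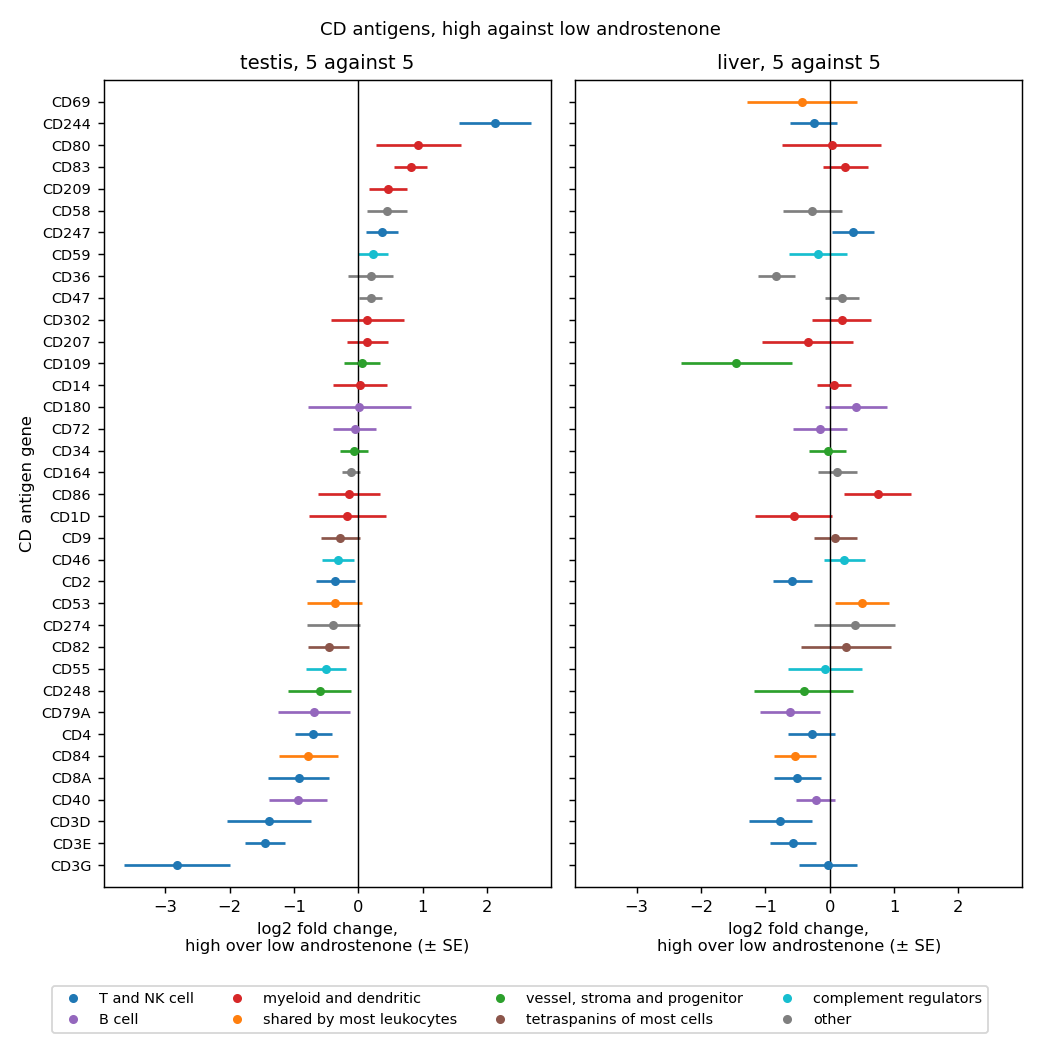
Log2 fold change of the tested CD antigen genes, all but 1, high over low androstenone, with its standard error (x axis), in testis (left) and liver (right), ordered by the value in testis and coloured by class. None was called by edgeR; CD3G (-2.82), CD3E (-1.45) and CD3D (-1.39) lie lowest in testis, and CD109 (-1.45) and CD36 (-0.83) in liver.

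An interaction term over all 20 libraries tested whether the androstenone difference was itself unequal in testis and liver, testis difference minus liver difference. No CD antigen of 37 and no ID of 19065 was called by edgeR (0.00%, smallest adjusted p 0.801), and no other tool was run on it. Without CD244, 3 of 36 genes had an unadjusted p under 0.05, against 4.67% of all IDs. They were CD3G with -2.67 ± 0.91 SE, in a direction that 1.63% of IDs showed, and CD36 (1.11 ± 0.47) and CD109 (1.68 ± 0.81), in the direction of 3.04% of IDs. For CD3E the interaction was -0.80 ± 0.48, so a larger androstenone difference in testis than in liver was not shown for this gene.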

How the data were processed

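RNA-Seq of testis and liver of boars with high and low androstenone was used, 5 libraries per tissue and group. The authors made full-length cDNA, sequenced 1 lane per library on an Illumina HiSeq instrument, called reads with CASAVA 1.7 and used BWA for alignment to a reference set of RefSeq mRNA and UniGene sequences (Sscrofa 9.2), and per the labels SAMtools was also used. The authors deposited raw read counts per reference ID. How reads matching several sequences were counted is not given in the sources used here, so counts of near-identical sequences are uncertain. Each file lists 21785 lines for 21755 IDs, since 10 IDs recur with equal counts and were taken a single time.

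IDs were named through a RefSeq table of Sscrofa11.1, which matched 6654 of them. Counts were normalized by TMM and tested with edgeR 4.0.16 in R 4.3.3 (quasi-likelihood test, Benjamini-Hochberg adjustment over all IDs with at least 10 summed counts), in a fit of 4 groups for testis against liver and the interaction, and of 2 groups within a tissue. The SE was taken from the log2 fold change and its F value. The thresholds, an adjusted p of 0.05 and 1.5-fold, are those the study states for its first analysis. The study also required an adjusted p under 0.05 in a second, GLM analysis, which was not part of the rule here. The procedure was tested on simulated data. Alternatives were DESeq2 1.42.0, RLE, other filters, a likelihood ratio test, a fit of all 20 libraries, a replicate block, summed IDs of a symbol, a minimum log2 fold change of 1.5 and leaving out each library. Library totals alone, and leaving out 2 libraries for CD244, were added after the data were seen.

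The gene set and all lists were chosen with earlier results of these data known. Values are named for the 12 called genes with the largest change in each direction between tissues, the 6 with the smallest p per tissue between androstenone groups, CD244, CD5 and the lineage markers. The values of 1 gene of the set are not reported here. Other genes were named for their class or role, after their values were seen. Intervals from counts and the limit of 3 counts cover counting error only. The sources do not say which testis and liver libraries came from 1 boar, nor name separate extractions, so p-values measure the spread between these libraries.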

Additional observations from a re-analysis of the deposited data

Results flagged for a closer look

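Each group of 5 libraries with at least 100 summed counts of a CD antigen was searched for a single library whose gap to the nearest other exceeded the Dixon limit of 0.71 of the group's range. This was found in 11 of 82 groups. For independent, normally distributed values the limit gives about 1 in 20, or 4.1. CPM of genes that share libraries need not meet this, so an excess was not tested. In low androstenone liver, replicate 5 was high for 4 genes, with CD53 at 67.8 CPM (others 27.4 to 33.1), CD58 at 23.9 CPM (4.33 to 9.37), CD86 at 6.23 CPM (1.70 to 2.84) and CD8A at 7.14 CPM (2.46 to 3.58). In the same group CD2 was low in replicate 1, at 6.39 CPM (8.49 to 9.06), and CD36 high in replicate 2, at 14.6 CPM (9.96 to 11.2). In low androstenone testis, replicate 2 was low for CD209 at 1.81 CPM (6.82 to 8.04) and CD47 at 48.2 CPM (75.1 to 81.7), and replicate 5 was high for CD40 at 5.06 CPM (1.39 to 2.22). In high androstenone liver, CD55 was at 11.4 CPM in replicate 4 (1.38 to 3.48) and CD9 at 137 CPM in replicate 3 (32.9 to 60.5).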

How the results depend on the processing

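Between testis and liver, 23 to 30 genes were called under every alternative, against 26, with the fewest at a minimum log2 fold change of 1.5 and the most under library totals, and 26 to 27 with 1 library left out. CD9 changed sign, with log2 fold changes of 0.04 under DESeq2, 0.04 under RLE, 1.01 under library totals and -0.09 to 0.20 with 1 library left out, where it was above 0 without liver high replicate 3 (0.20), liver low replicate 4 (0.05) or 5 (0.03), testis high replicate 1 (0.07) or testis low replicate 1 (0.11). Under library totals CD4 also changed sign (0.31) and CD2 was -0.54. In testis by androstenone, DESeq2 called 1 CD antigen, against 0 by edgeR and 0 to 0 with single libraries left out. The likelihood ratio test with trended dispersion called 3. They include CD244, which the study selected on these libraries, and CD3G, which passed the count filter only through the low libraries. In liver the count was 0 throughout. The cause of these differences was not tested. Replicate numbers were tried as a block. Same-numbered libraries of low and high testis correlated between -0.0592 and 0.179 in their deviations from the group means, and those of liver between -0.344 and 0.475. Same-numbered testis and liver libraries correlated between -0.0358 and 0.135 with low and between -0.0554 and 0.424 with high androstenone, against medians of -0.024 and -0.0766 for other numbers. Since no set had every value over 0.1, the numbers were not taken as a pairing. With the block 26 genes were called between the tissues and 0 between androstenone groups in testis and in liver. Of 913 recomputed log2 fold changes of named genes, 896 kept direction and call. In testis CD3G, CD3D, CD8A and CD79A lay near the level of a few counts, which limits what can be seen there.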

Other observations

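LCK, the kinase that starts T cell receptor signalling, was at 0.680, 0.747, 6.25, 7.94 and 1.65 CPM in low and at 8.68, 3.42, 0.479, 0.951 and 0.672 CPM in high androstenone testis, so that the same libraries did not rank as they did for CD3E, which showed 2.82, 1.71, 3.06, 3.17 and 3.61 CPM and 0.798, 1.52, 0.479, 1.19 and 1.34 CPM. In liver LCK was at 15.7, 20.9, 1.61, 6.24 and 11.2 CPM with low and 9.09, 2.08, 7.25, 2.24 and 2.02 CPM with high androstenone. It was called as lower in testis than in liver with a log2 fold change of -1.17 ± 0.52 SE (edgeR, adjusted p = 0.0416), and under library totals it was at -0.14 and not called.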
